A study of Mus musculus with 18 samples.

Results

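The interleukin 1 family is a group of alarm and inflammatory cytokines with their receptors and natural inhibitors. The 10 members described here are the genes of the deposited mouse table with the symbols Il1a, Il1b, Il18, Il33, Il1rn, Il18bp, Il1r1, Il1rap, Il18r1 and Il1rl1, out of 35405 genes in all. They are taken by symbol, and the set was drawn up with earlier results of these data known, so its counts of genes are a description. All 10 passed the filter on low counts that left 20855 genes for testing.

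Interleukin 1 alpha and interleukin 1 beta act on the same receptor, whose chains are encoded by Il1r1 and Il1rap, and start signalling through MYD88 to NF-kB. The receptor antagonist encoded by Il1rn occupies that receptor without starting a signal, and the binding protein encoded by Il18bp captures interleukin 18. Interleukin 33 is a nuclear protein of barrier and stromal cells that is set free by damage and binds the receptor encoded by Il1rl1, also called ST2, which is carried by mast cells, innate lymphoid cells and some T cells. Interleukin 1 beta and interleukin 18 are made as inactive precursors and cut by caspase 1 in inflammasomes, so a transcript level is not a level of active cytokine.

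Polyadenylated RNA of mouse colon tissue was sequenced in 18 libraries, 6 in each of 3 groups named vector, TNBS and IBC. TNBS is trinitrobenzene sulfonic acid, a hapten that provokes colitis, IBC is isobavachalcone, a chalcone from a plant used in traditional medicine, and the vector libraries are headed as control in the table. The series title names isobavachalcone, TNBS colitis and GPR84, a fatty acid receptor of myeloid cells. Whether TNBS was also given to the IBC group, and the strain, sex, age, dose, route and time, are not stated in the labels. Nor do they say that each library is a separate animal, so the p-values below measure the spread between libraries, which may be technical in part. In whole tissue, fewer cells of a type and less RNA per cell cannot be told apart.

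Library totals lay between 55.7 and 78.9, in units of 1e6 counts. Hoxb13, a homeobox gene of the hind part of the gut, split the libraries across the groups: it was at most 1.44 CPM (counts per 1e6 of the scaled total) in 6 libraries (IBC 2 and 5, TNBS 2 and 3, vector 3 and 4) and at least 123 CPM in the other 12. Each group thus holds 4 libraries high and 2 low in Hoxb13, and the members are given within each set further on. The summed markers of colon epithelium were present in every library, from 12050 to 37990 CPM. Marker sums of several cell types differed between the groups in level. The 8 neutrophil markers summed to 5.76 to 158.8 CPM in the vector libraries (median 68.7), to 96.9 to 963 in the TNBS libraries (median 148.4) and to 29.1 to 254 in the IBC libraries (median 195.3). Ly6g was the largest part of the neutrophil sums, averaging 68.1, 253.8 and 111.6 CPM in vector, TNBS and IBC. S100a8 averaged 0.213, 15.8 and 2.93 CPM, and S100a9 0.436, 23.4 and 8.55 CPM. The medians of the 10 summed monocyte and macrophage markers were 223, 309.8 and 388.8 CPM in the same order of groups. The 10 mast cell markers summed to 1.70 to 4.32 CPM in vector, while TNBS had 6.65 to 16.4 and IBC 5.89 to 29.3. Stromal sums differed too. The fibroblast markers had medians of 1504, 1925 and 4653 CPM for vector, TNBS and IBC, and the smooth muscle markers 4479, 2893 and 3710 CPM. Mesothelium markers summed to 7.43 to 12.7 CPM in the vector libraries and to 16.3 to 31.9 in the IBC libraries, with no overlap, and to 4.31 to 88.1 in the TNBS libraries. Vector 6 stood apart with 12040 CPM of pancreatic acinar genes, against at most 379 in every other library. With or without it, edgeR called 0 members in any comparison. Without it 0 of all 21153 genes tested were called, so this count cannot show the part of that library. The part of these cells in the results below was not tested.

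Levels of different genes can be set against each other only per length, as FPKM (fragments per kilobase and per 1e6 fragments). By the median over the 18 libraries, Il18 led with 39.9 FPKM, ahead of Il1rn with 8.66, Il1r1 with 4.59, Il33 with 3.19, Il1rl1 with 2.16, Il18bp with 2.11, Il1b with 1.75, Il1rap with 0.851, Il18r1 with 0.353 and Il1a with 0.246. Il18 was above Il1rn in 18 of 18 libraries, and Il1rn above Il1r1 in 16 of 18. The next neighbours overlapped: Il1r1 exceeded Il33 in 13 libraries, Il33 exceeded Il1rl1 in 12, Il1rl1 exceeded Il18bp in 8 and Il18bp exceeded Il1b in 9 of the 18. Il1b was above Il1rap in 14 and Il1rap above Il18r1 in 17 libraries, while Il18r1 was above Il1a in 10. The spread within a gene differed as well. Il1b ran from 0.351 to 17.2 FPKM and Il1rl1 from 0.267 to 11.8, while the receptor chain Il1r1 stayed between 3.04 and 8.47 FPKM.

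Several members lie side by side in the genome. In the table's coordinates, whose build is not given in the sources used here, Il1r1 (chromosome 1, 40264240 to 40356417), Il1rl1 (40468730 to 40487308) and Il18r1 (40504712 to 40540014) belong to a row of 6 receptor genes, with Il1r2, Il1rl2 and Il18rap, that spans 478 kb. Il1a (chromosome 2, 129141530 to 129151892) and Il1b (129206490 to 129213059) are neighbours on the minus strand within 71.5 kb. The other members are Il1rn (chromosome 2, 24226865 to 24241506), Il18 (chromosome 9, 50466127 to 50493140), Il33 (chromosome 19, 29902514 to 29938118), Il18bp (chromosome 7, 101664092 to 101667404) and Il1rap (chromosome 16, 26400454 to 26548867). The table holds 1 value per gene and lists 4 transcripts for Il1rl1, so the soluble and the membrane form of its receptor are not separated.

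Promoter sequences of the 10 members were matched by symbol in RefSeq (GRCm38.p6), which gave 17 windows of the 250 bases before an annotated transcription start. Those of Il1a, Il1b and Il33 are shown because these ligands varied together across the libraries, and that of Il1rn because it holds an AP-1 match. The capitals mark the TATA box letters TATAAA and the AP-1 letters TGANTCA, and each line runs 5′ to 3′ on the gene's strand with the start site after its last base. The windows are chr2:129309973-129310222 (minus strand), chr2:129371140-129371389 (minus strand), chr19:29945540-29945789 (plus strand) and chr2:24336610-24336859 (plus strand).
Il1a: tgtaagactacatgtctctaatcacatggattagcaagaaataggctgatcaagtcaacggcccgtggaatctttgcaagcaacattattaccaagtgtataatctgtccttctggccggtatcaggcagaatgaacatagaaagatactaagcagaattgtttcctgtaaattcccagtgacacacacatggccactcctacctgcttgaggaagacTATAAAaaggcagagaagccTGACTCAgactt
Il1b: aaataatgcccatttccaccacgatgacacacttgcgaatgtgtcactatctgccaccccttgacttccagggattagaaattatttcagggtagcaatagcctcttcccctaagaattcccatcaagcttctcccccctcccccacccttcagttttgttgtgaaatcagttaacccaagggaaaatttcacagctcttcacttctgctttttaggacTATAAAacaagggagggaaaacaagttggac
Il33: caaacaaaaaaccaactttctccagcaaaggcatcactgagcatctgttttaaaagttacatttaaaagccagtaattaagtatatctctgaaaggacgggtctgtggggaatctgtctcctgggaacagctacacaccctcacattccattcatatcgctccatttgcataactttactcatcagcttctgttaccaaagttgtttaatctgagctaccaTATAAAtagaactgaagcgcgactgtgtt
Il1rn: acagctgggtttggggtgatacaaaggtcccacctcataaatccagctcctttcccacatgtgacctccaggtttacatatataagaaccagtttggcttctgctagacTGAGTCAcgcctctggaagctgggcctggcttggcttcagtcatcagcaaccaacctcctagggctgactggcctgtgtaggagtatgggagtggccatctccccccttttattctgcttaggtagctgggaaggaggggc
TATAAA was found 32 to 27 bases before the start of Il1a, 31 to 26 before that of Il1b and 29 to 24 before the Il33 start shown. Another Il33 window had it 203 to 198 bases before the start, and Il18 had it 175 to 170 bases before its start on the opposite strand. In all, 4 members had the letters in 5 of 17 windows, against 12.4% of 32851 mouse windows of this length searched on both strands. TGANTCA, which reads the same on both strands, lay 12 to 6 bases before the start of Il1a and 141 to 135 before that of Il1rn (6.75% of all windows). The NF-kB consensus was found in 1 of the 17 windows, at Il1r1 (7.25% of all). These matches describe letters in the windows and not binding.

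**Figure D1:**
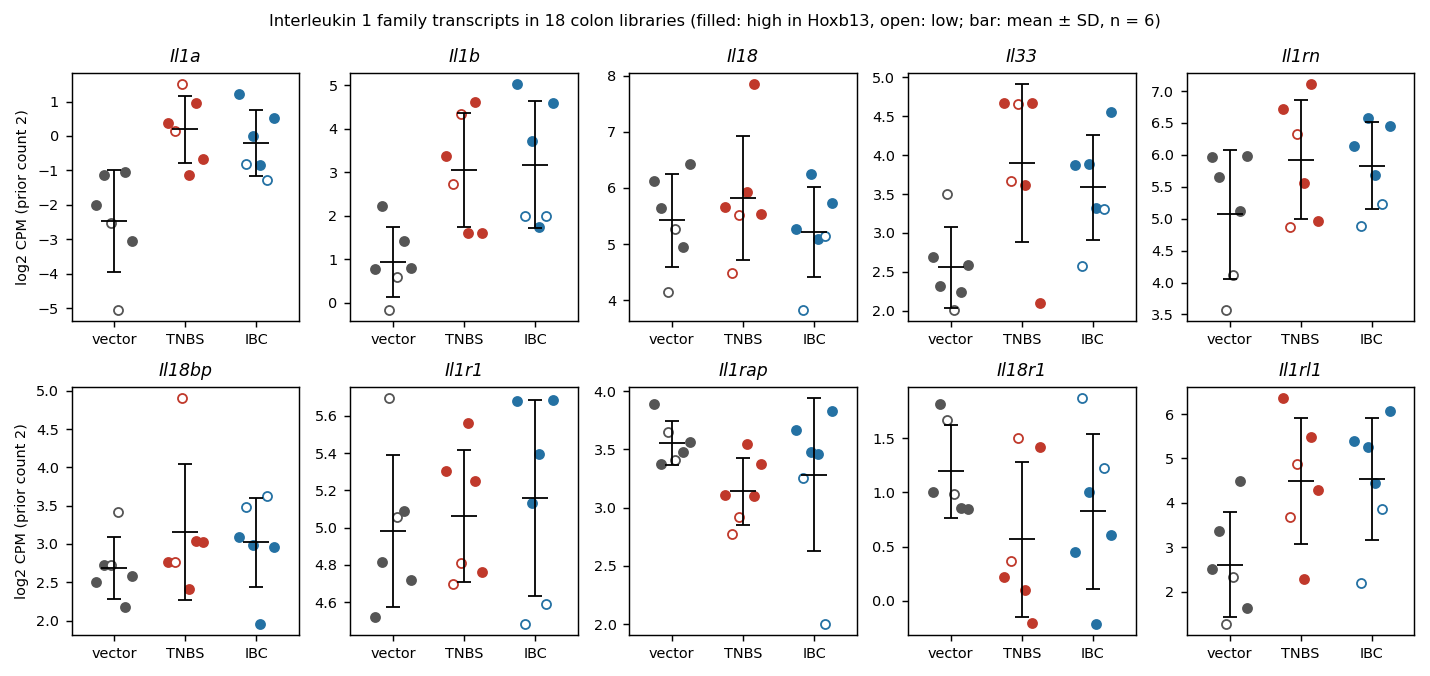
Log2 CPM (vertical axis, prior count 2) of each member in the 18 libraries by group, with the mean and SD of 6 libraries as a bar. Filled points are libraries high in Hoxb13 and open points those low in it. Il1a, Il1b, Il33, Il1rl1, Il1rn, Il18bp and Il1r1 have their lowest group mean in vector, and every gene's groups overlap.

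The comparison of TNBS with vector shows how the family's transcripts stood in chemically induced colitis. Among the ligands, the medians of Il1a, Il1b and Il33 were several times those of vector, and among the receptors so was that of Il1rl1, while Il18, Il1r1, Il1rap and Il18r1 had medians nearer to each other. None of these differences passed the test over all genes. Counted over the 10 members, 0 were called by edgeR at an adjusted p under 0.05 in either direction, against 0.0192% of all genes (4 genes). At an unadjusted p under 0.05, 4 members were higher and 0 lower, against 10.4% of all genes higher and 7.32% lower. No member's groups were free of overlap (0 of 10, against 1.17% of all genes in either direction). The members' median log2 difference was 0.77 and that of all genes tested -0.01.

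Il1b, the cytokine released by activated macrophages and neutrophils, lay between 0.869 and 4.69 CPM in the vector libraries, with a median of 1.70. In TNBS it lay between 3.00 and 24.7 CPM, with a median of 8.46. All 6 TNBS libraries were above the vector median, and the overlap came from vector 2 on the high side and TNBS 4 and 6 on the low side. The fitted log2 difference was 2.38 ± 0.67 (SE, edgeR adjusted p = 0.138), and it stayed between 2.01 and 2.76 when any 1 library was left out.

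Il1a encodes the sister ligand, which can act from the cell surface and is freed by dying cells. It was scarce throughout, at 0 to 0.454 CPM in vector (median 0.181, with no count in vector 4) and 0.422 to 2.79 CPM in TNBS (median 1.17). The single point of overlap was TNBS 4, which lay below vector 2 and 5. The log2 difference was 2.59 ± 0.71 (SE, edgeR adjusted p = 0.127).

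Il33, the damage signal of stromal and barrier cells, was 4.01 to 11.3 CPM in vector (median 5.46) and 4.27 to 25.4 CPM in TNBS (median 19.0). TNBS 6, at 4.27 CPM, was the only TNBS library within the range of the vector libraries other than vector 3, and the other 5 TNBS libraries were all at or above 12.3 CPM. The log2 difference was 1.49 ± 0.40 (SE, edgeR adjusted p = 0.117). Without TNBS 6 it was 1.70 with an adjusted p = 0.0268 (edgeR), the only member call that leaving out 1 library gave in the fit by group alone, while 1.53% of all genes (323 genes) were then called.

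Il18, which the gut epithelium makes at rest, showed a different pattern. It was 17.6 to 85.6 CPM in vector (median 44.1) and 22.2 to 230.3 in TNBS (median 48.6). Only TNBS 5, with 230.3 CPM against 60.9 in the next TNBS library, stood above the vector range. The log2 difference was 0.64 ± 0.50 (SE, edgeR adjusted p = 0.488) with that library and -0.09 without it. TNBS 5 also had the highest neutrophil marker sum, 963 CPM, a sum in which Ly6g had the highest mean.

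Of the inhibitors, Il1rn lay between 11.9 and 63.5 CPM in vector (median 42.3) and between 29.3 and 137.5 in TNBS (median 63.8). TNBS 1, 3 and 5 were above every vector library and the other 3 were inside their range. The log2 difference was 0.85 ± 0.45 (SE, edgeR adjusted p = 0.324). Il18bp was 4.51 to 10.7 CPM in vector (median 6.25) and 5.31 to 29.8 in TNBS (median 7.43), and its highest value came from TNBS 3 alone. Its log2 difference of 0.70 ± 0.38 (SE, edgeR adjusted p = 0.332) was 0.08 without TNBS 3.

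The receptor genes did not share a direction. Il1rl1, the interleukin 33 receptor, was 2.40 to 22.6 CPM in vector (median 5.35) and 4.87 to 81.7 in TNBS (median 24.5). Vector 5, at 22.6 CPM, was above 3 of the TNBS libraries, and TNBS 1 was the highest of all. The log2 difference was 1.97 ± 0.69 (SE, edgeR adjusted p = 0.192), and it was 1.44 without TNBS 1 and 2.599 without vector 5.

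Il1r1, the chain that binds interleukin 1, was 22.9 to 51.7 CPM in vector (median 30.7) and 25.9 to 47.2 in TNBS (median 33.01), with a log2 difference of 0.07 and a 95% interval of -0.43 to 0.57. Its partner Il1rap, which the interleukin 33 receptor also uses, was 10.3 to 14.7 CPM in vector (median 11.4) and 6.82 to 11.7 in TNBS (median 8.58). Here 5 of 6 TNBS libraries lay below the vector median, with a log2 difference of -0.41 ± 0.23 (SE, edgeR adjusted p = 0.344). Il18r1 was the scarcest receptor, at 1.77 to 3.49 CPM in vector (median 1.96) and 0.835 to 2.81 in TNBS (median 1.20). Its log2 difference was -0.54 ± 0.37 (SE, edgeR adjusted p = 0.434).

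The choice of tool decided the calls. DESeq2 with its own size factors called 4 of the 10 members higher, against 1.59% of all genes called higher (331 genes). They were, with DESeq2's estimates, Il1a (2.62, adjusted p = 0.00668), Il1b (2.40, adjusted p = 0.00734), Il33 (1.51, adjusted p = 0.0112) and Il1rl1 (1.99, adjusted p = 0.0497). In contrast, limma on log2(FPKM + 0.1) called 0 members and 0 genes. With the Hoxb13 set as a term, edgeR called 142 genes (0.681%) and 0 members. With that term and without TNBS 6, edgeR called 1215 genes (5.75%) and 5 members, namely Il1a (3.08), Il1b (2.86), Il1rl1 (2.27), Il33 (1.69) and Il1rn (1.24), with adjusted p = 0.0142 for Il33 to adjusted p = 0.04 for Il1rl1. That setting was chosen after the data had been seen.

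**Figure D2:**
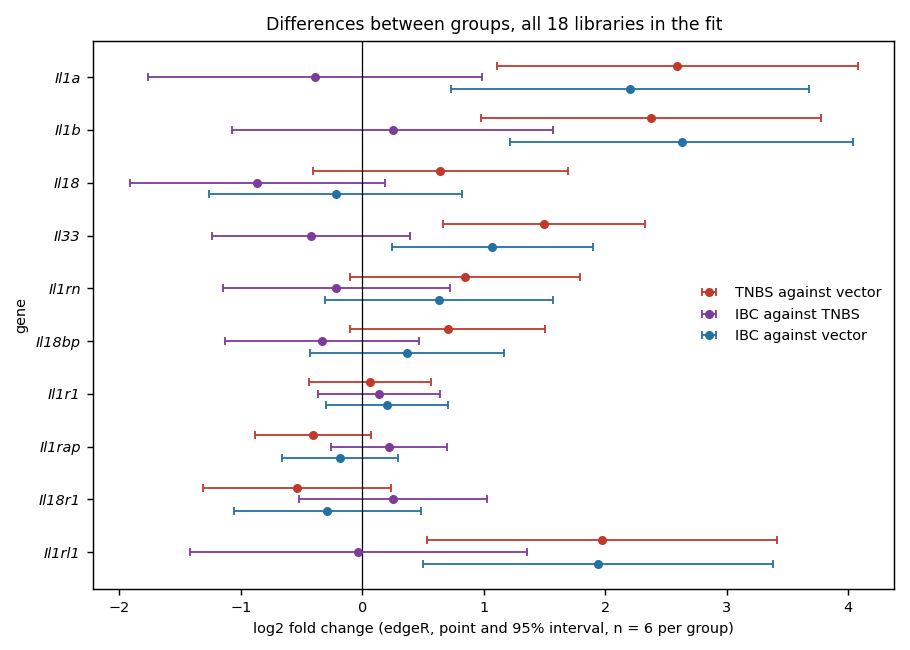
Log2 fold change (horizontal axis) of each member in the 3 comparisons, fitted with edgeR on all 18 libraries, with 95% intervals. The intervals of Il1a, Il1b, Il33 and Il1rl1 lie above 0 against vector for both TNBS and IBC, and all 10 intervals of IBC against TNBS include 0.

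The comparison of IBC with TNBS asks how the family stood in the compound's group beside the colitis group. No member differed between them by the test: 0 of 10 were called by edgeR (0% of all genes, 0 genes) and 0 of 10 had an unadjusted p under 0.05, against 1.71% of all genes higher and 2.22% lower. DESeq2 called 0 members (0.0048% of all genes higher, 2 genes in either direction), limma called 0 members, and 0 members were free of overlap (0.149% of all genes). The ligand medians in IBC were 8.49 CPM for Il1b, 0.752 for Il1a, 12.3 for Il33 and 37.1 for Il18. The ranges were 3.34 to 32.4 CPM for Il1b, 0.380 to 2.30 for Il1a, 5.90 to 23.4 for Il33 and 14.2 to 75.6 for Il18, and each overlapped the TNBS range.

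The widest fitted difference belonged to Il18, at -0.86 ± 0.50 (log2, SE, edgeR adjusted p = 0.925). It shrank to -0.10 without TNBS 5, the library with 230.3 CPM. Il1b differed by 0.25 (95% interval -1.07 to 1.57), Il1a by -0.39 (-1.76 to 0.98) and Il33 by -0.42 (-1.24 to 0.39). Leaving out IBC 1 turned the Il1b difference to -0.22. These intervals leave room for changes of more than 1 log2 unit in Il1a and Il1b, so they do not show that the groups were alike.

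The inhibitors and receptors were as close. Il1rn was 29.5 to 95.6 CPM in IBC (median 60.8) and differed from TNBS by -0.21 (-1.15 to 0.73), and Il18bp was 3.87 to 12.4 CPM (median 8.19) and differed by -0.33 (-1.13 to 0.47), or by 0.29 without TNBS 3. Il1rl1, at 4.56 to 66.9 CPM in IBC (median 30.0), differed by -0.03 (-1.42 to 1.35). Il1r1 was 22.4 to 51.4 CPM (median 38.5) and differed by 0.14 (-0.36 to 0.64). Il1rap was 3.98 to 14.2 CPM (median 11.02), with its lowest value in IBC 5, and differed by 0.22 (-0.26 to 0.70). Il18r1, at 0.834 to 3.62 CPM (median 1.74), differed by 0.25 (-0.52 to 1.02).

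The comparison of IBC with vector shares the vector libraries with that of TNBS, so the values are set side by side without a test of their likeness. Il1b stood 2.63 ± 0.67 above vector in IBC (log2, SE, edgeR adjusted p = 0.246), beside 2.38 in TNBS. Il1a stood at 2.20 ± 0.70 (edgeR adjusted p = 0.347), Il1rl1 at 1.94 ± 0.69 (edgeR adjusted p = 0.401, and 2.57 without vector 5) and Il33 at 1.07 ± 0.39 (edgeR adjusted p = 0.436). All 6 IBC libraries were above the vector median for Il1a, Il1b and Il33, and 5 of 6 for Il1rl1. These 4 members were higher at an unadjusted p under 0.05 and 0 were lower, against 4.9% of all genes higher and 3.63% lower. By edgeR 0 members and 0 genes (0%) were called, limma called 0 members, and 0 members were free of overlap (1.08% of all genes). DESeq2 called Il1b alone among the members (2.64, adjusted p = 0.00466), against 0.652% of all genes called higher. The other 6 members had log2 differences between -0.29 (Il18r1) and 0.63 (Il1rn), with an edgeR adjusted p of 0.768 or more.

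The balance between a ligand and its inhibitor or receptor was read within each library, where the scaling of the total has no part. Il1b stood at 7.71% to 27.1% of Il1rn in the vector libraries (median 21.6%, FPKM over FPKM), at 18.5% to 73.7% in TNBS (median 40.2%) and at 18.8% to 134% in IBC (median 39.2%). In IBC 1 alone the ligand transcript exceeded that of its antagonist per length, while by counts it stayed below (2334 against 5054). The mean log2 ratio of counts was 1.26 higher in TNBS than in vector (exact permutation p = 0.0325, adjusted p = 0.146 over 9 tests, above the vector median in 5 of 6 libraries). It was 1.49 higher in IBC than in vector (exact permutation p = 0.0173, adjusted p = 0.146, 5 of 6 libraries). Neither passed after adjustment, although the first did without TNBS 4 (1.48, exact permutation p = 0.00433, adjusted p = 0.039) and the other without IBC 4 (1.75, exact permutation p = 0.00216, the smallest that its assignments can give, adjusted p = 0.0195). TNBS and IBC differed by 0.23 in this ratio (exact permutation p = 0.667).

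Il18 exceeded Il18bp per length in every library, with medians of 2111%, 1944% and 1670% for vector, TNBS and IBC and a range of 374% to 8251%. Il33 stood at medians of 230.2%, 170.8% and 100.9% of Il1rl1 for vector, TNBS and IBC, from 49.5% to 1134% over all libraries. None of the 6 differences in these ratios had an exact permutation p under 0.227.

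**Figure D3:**
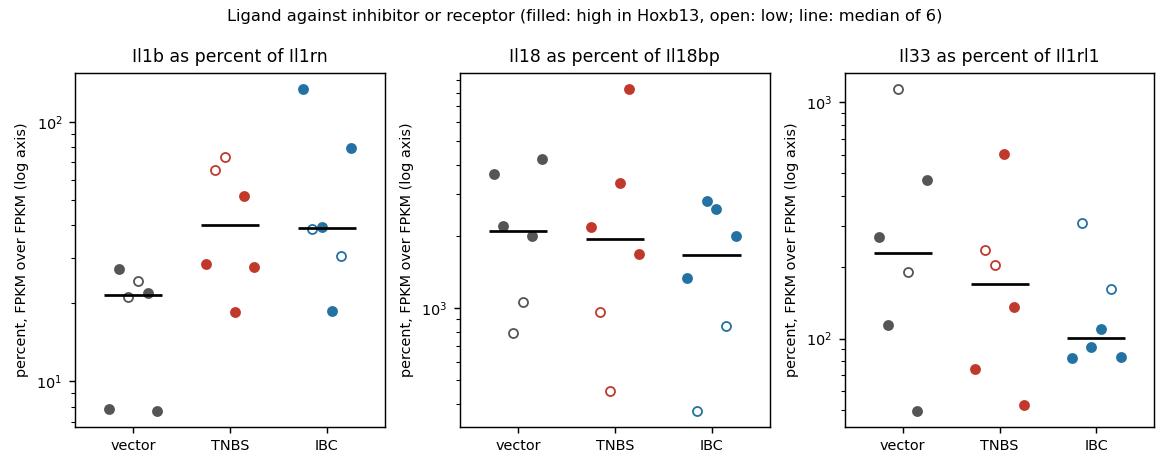
Il1b as a percent of Il1rn, Il18 of Il18bp and Il33 of Il1rl1 in FPKM (vertical log axes) by group, with a line at the median of 6 libraries. Il1b to Il1rn has medians of 21.6%, 40.2% and 39.2% in vector, TNBS and IBC, and the groups overlap for all 3 ratios.

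The Hoxb13 sets differed in the members' levels, given here as a description because the sets were defined from these data. Il1rn averaged 34.3 ± 24.3 CPM in the 6 libraries low in Hoxb13 and 69.8 ± 31.5 in the 12 high ones (SD), and Il18 29.0 ± 12.7 against 68.8 ± 53.5 CPM. Il1rl1 averaged 11.5 ± 10.1 against 30.1 ± 25.3 CPM. Il18bp went the other way, at 12.9 ± 8.63 in the low and 6.59 ± 1.55 CPM in the high libraries. Il33 averaged 11.5 ± 7.51 and 12.7 ± 8.15 CPM, with no such gap.

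Within the sets, the TNBS and vector difference in mean log2 CPM had the same direction in both for 9 of the 10 members. It was 1.49 in the high and 3.32 in the low libraries for Il1b, 1.69 and 4.61 for Il1a, 1.31 and 1.40 for Il33, and 1.60 and 2.47 for Il1rl1. Il1r1 was the exception, at 0.43 in the high and -0.62 in the low libraries. In IBC against vector it also split, at 0.69 and -0.84. The 4 high vector libraries averaged 27.8 CPM of Il1r1 against 44.9 in IBC, while the 2 low vector libraries averaged 42.5 against 23.2 in IBC. The test of that difference between the sets gave an unadjusted p = 0.000296 and an adjusted p = 0.106 over all genes (edgeR), and no member passed in any comparison. Vector 3, the library with 51.7 CPM of Il1r1, had 17.98% of its counts in mitochondrial genes, the highest share of all.

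IBC against TNBS ran in opposite directions in the sets for 7 members. Il1b was 0.97 higher in IBC among the high libraries, with means of 18.2 and 10.3 CPM, and 1.54 lower among the low ones, with means of 3.95 and 13.5 CPM and only 2 libraries per group. The difference between the sets had an unadjusted p = 0.0473 and an adjusted p = 0.895 (edgeR).

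**Figure D4:**
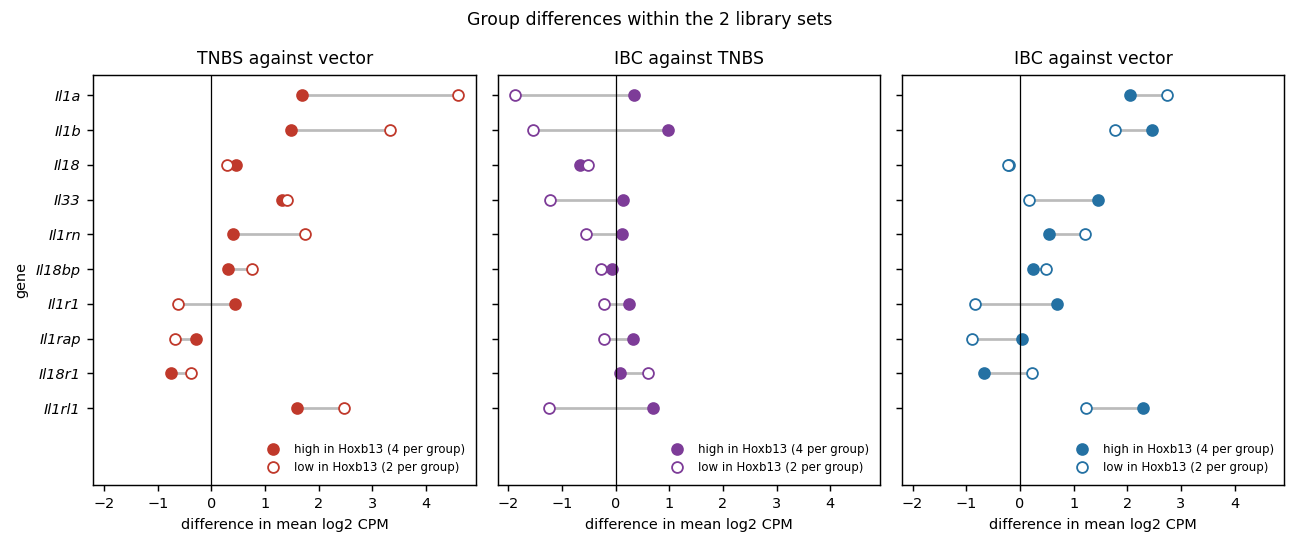
Difference in mean log2 CPM (horizontal axis) of each member within the 4 libraries per group high in Hoxb13 (filled) and the 2 per group low in it (open). Against vector, Il1a, Il1b, Il33 and Il1rl1 lie right of 0 in both sets, and Il1r1 lies on opposite sides.

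Other genes of the pathway were taken from lists by function. No gene of any list was called by edgeR over all genes in any comparison, so the counts that follow are of unadjusted p under 0.05, against the shares of all genes given above. The genes that interleukin 1 is known to induce came first by count: in TNBS against vector 12 of 17 were higher and 0 lower, with a median log2 difference of 1.69. Ccl2, which draws monocytes, differed by 3.03 ± 0.52 (SE, edgeR adjusted p = 0.0559), and the neutrophil attractants Cxcl1 by 3.28 ± 0.66 (edgeR adjusted p = 0.0902), Cxcl2 by 6.49 ± 1.36 (edgeR adjusted p = 0.0903) and Cxcl5 by 6.88 ± 1.48 (edgeR adjusted p = 0.0909). These 4 genes had no overlap between the groups, against 0.432% of all genes higher without overlap. In IBC against vector 9 of 17 were higher and 0 lower (median 1.02), and in IBC against TNBS 0 were higher and 1 was lower (Ccl2, -1.17 ± 0.49, edgeR adjusted p = 0.925, median of the list -0.08, against 2.22% of all genes lower). In the libraries high in Hoxb13 alone the counts of higher genes were 10 of 17 in TNBS and 12 of 17 in IBC against vector. Of all 21030 genes tested there, 2560 in TNBS and 2118 in IBC against vector had an unadjusted p under 0.05 in either direction. DESeq2 called 7 and 6 of the 17 higher at its adjusted p under 0.05, of 1.59% and 0.652% of all genes. Other cytokines induce these genes too.

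Among other members of the family, 5 of 11 listed genes passed the filter on low counts. The decoy receptor Il1r2, which binds interleukin 1 without signalling, averaged 0.684 ± 0.326 CPM in vector (SD, n = 6), beside 4.82 ± 5.46 for TNBS and 2.02 ± 0.918 for IBC. It differed by 2.82 ± 0.60 in TNBS against vector (log2, SE, edgeR adjusted p = 0.0909), by -1.25 ± 0.57 in IBC against TNBS (adjusted p = 0.925) and by 1.56 ± 0.58 in IBC against vector (adjusted p = 0.439). Il36g, an epithelial agonist of the family, averaged 0.0242 ± 0.0400 CPM in vector, with 0.441 ± 0.694 for TNBS and 0.844 ± 0.729 for IBC, and was at 0 counts in 5 of the 18 libraries. Il1rl2, the receptor chain for the interleukin 36 ligands, went the other way between IBC and TNBS, at 0.78 ± 0.35 (edgeR adjusted p = 0.925), with 0.05 in TNBS and 0.83 in IBC against vector. At an unadjusted p under 0.05 this list thus had 1 gene higher and 1 lower in IBC against TNBS. The inhibitory receptor Sigirr was the most even, at 36.5 ± 3.31, 38.8 ± 6.70 and 39.4 ± 7.48 CPM. Il18rap, the partner of Il18r1, differed by 0.47 ± 0.34 in TNBS and 0.68 ± 0.34 in IBC against vector (adjusted p = 0.459 and adjusted p = 0.621, edgeR).

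Signalling genes downstream of the receptors lay close together between groups. Of 17, 1 was higher and 1 lower at an unadjusted p under 0.05 in TNBS against vector, with a median log2 difference of -0.02. They were the adaptor Myd88 at 0.43 ± 0.16 (edgeR adjusted p = 0.203) and the NF-kB kinase subunit Ikbkg at -0.24 ± 0.10 (edgeR adjusted p = 0.247). Of 12 inflammasome genes 2 were higher and 0 lower (median 0.04), namely Gsdmd, the pore protein of pyroptosis, at 0.55 ± 0.22 and Casp8 at 0.41 ± 0.18. Pycard, the adaptor of inflammasomes, stood at 0.58 ± 0.32 in TNBS and 0.27 in IBC against vector. The sensor Nlrp3 stood at 0.92 ± 0.60 in TNBS and 1.87 ± 0.61 in IBC against vector. Casp1, which cuts the precursors of interleukin 1 beta and interleukin 18, averaged 130.3 ± 26.6, 131.8 ± 25.7 and 130.4 ± 28.1 CPM in vector, TNBS and IBC.

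The genes listed around interleukin 18 and interleukin 33, not all of them downstream of these cytokines, gave few differences. Of 7 tested genes of the interleukin 18 and interferon gamma list, 1 was higher in TNBS against vector, the cytotoxic protease Gzmb at 2.03 ± 0.76 (log2, SE, edgeR adjusted p = 0.206). Of 7 tested genes of the interleukin 33 and type 2 list, 2 were higher and 0 lower (median -0.11). By direction alone, 2 were higher and 5 lower. Arg1, an arginase of activated macrophages, differed by 4.77 ± 1.01 (edgeR adjusted p = 0.0909), and Areg, a repair growth factor, by 1.01 ± 0.40 (edgeR adjusted p = 0.218). Il4 differed by -0.83 ± 0.40 (edgeR adjusted p = 0.286) and Rora by -0.52 ± 0.39 (edgeR adjusted p = 0.478). For both, 0 of 6 TNBS libraries lay above the vector median. The type 2 cytokines Il5 and Il13 were at 0 counts in 11 and 9 of the 18 libraries and were not tested. Il5 averaged 0.139 ± 0.225 CPM in vector and 0.0210 ± 0.0325 in TNBS (SD). Il13 averaged 0.252 ± 0.358 CPM in vector and 0.0358 ± 0.0560 in TNBS.

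**Figure D5:**
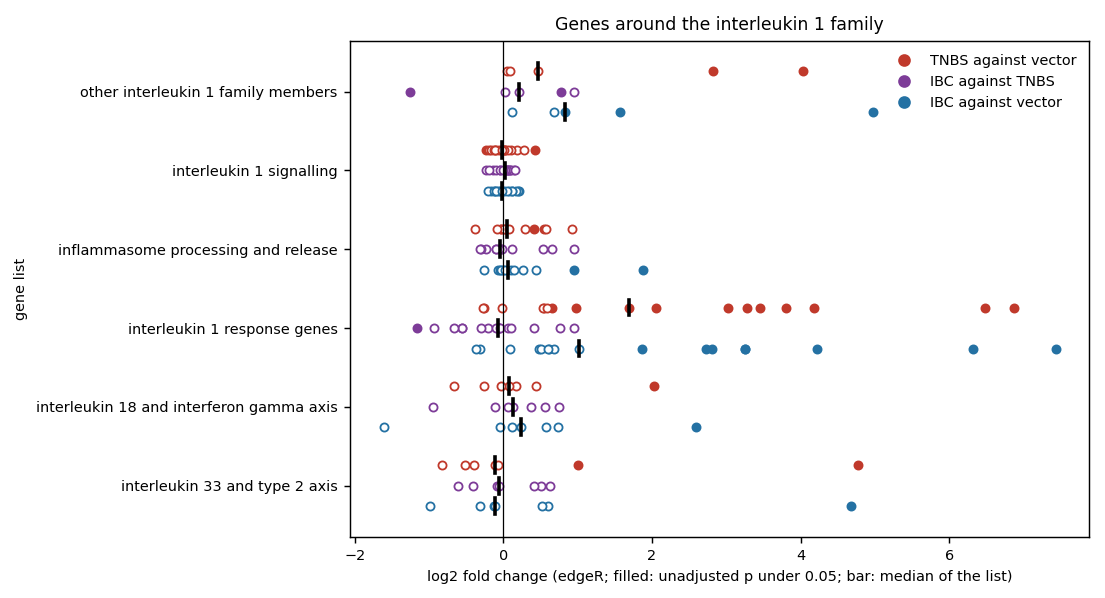
Log2 fold change (horizontal axis) of the tested genes of 6 pathway lists in the 3 comparisons, with filled points at an unadjusted p under 0.05 and a bar at each list's median. The response genes have medians of 1.69 in TNBS and 1.02 in IBC against vector and -0.08 in IBC against TNBS.

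Across the 18 libraries, some members varied together, given as a description since the libraries share groups and Hoxb13 sets. The neighbours Il1a and Il1b had a Pearson r of 0.87 (log2 CPM), and 0.68 once the means of group and set were removed. Il1b and Il1rl1 had 0.83 (0.66), Il1b and Il1rn 0.75 (0.70), Il1b and Il33 0.74 (0.56), and Il18 and Il1rn 0.74 (0.77). Il1r1, Il1rl1 and Il18r1 lie in the same row on chromosome 1 and had r of 0.31 between Il1r1 and Il1rl1, -0.42 between Il1rl1 and Il18r1 and -0.47 between Il1r1 and Il18r1.

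The genes most like each member by r over 18 libraries were found among all genes tested. For Il1b they were Clec7a (0.91), Cxcl1 (0.91) and Mmp13 (0.91), and for Il1rn Lilra6 (0.93), Slfn2 (0.92) and Sting1 (0.92). For Il33 they were Plat (0.93), Tspan4 (0.91) and Gja1 (0.90), and for Il1rl1 Nt5c1a (0.90), Mmp10 (0.88) and Osm (0.88, written for oncostatin M). Il18 was nearest to Dok4 (0.94), Paics (0.88) and Cpn2 (0.88), and Il18bp to Rnf19b (0.96), Or2v1 (0.92) and Irgm1 (0.92). Il1r1 had Sgcb (0.91), Scube1 (0.90) and Bicc1 (0.89), Il1rap had Tmem106b (0.91), Gm6685 (0.90) and 2510009E07Rik (0.89), and Il18r1 had Kcnc4, Ctsw (both 0.80) and Rundc3b (0.79). Il1a, with a mean under 1 CPM, was left out. Some of the genes named were scarce too, with medians of 0.27 CPM for Kcnc4, 0.50 for Nt5c1a, 0.61 for Osm, 0.64 for Cpn2, 0.86 for Or2v1 and 0.92 for Cxcl1. Once the means of group and set were removed, r ran from 0.68 (Il18r1 and Ctsw) to 0.98 (Il33 and Plat).

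Against the summed cell markers, Il1rn had r of 0.90 (0.83) with monocytes and macrophages, 0.86 (0.79) with neutrophils and -0.83 (-0.83) with colon epithelium. Values in brackets are r once the means of group and set were removed. Il1b had 0.82 (0.73) with monocytes and macrophages, 0.82 (0.63) with mast cells and 0.75 (0.60) with neutrophils. Il1rl1 had 0.81 (0.54) with mast cells, 0.79 (0.51) with monocytes and macrophages and 0.60 (0.79) with squamous epithelium. Il33 had 0.70 with mesothelium, 0.67 with mast cells and 0.64 with monocytes and macrophages. It also had 0.59 with squamous epithelium, 0.57 with neutrophils and 0.52 with fibroblasts. Once the means of group and set were removed, these Il33 values were 0.66, 0.42, 0.62, 0.55, 0.41 and 0.61. Il18 had -0.80 (-0.745) with colon epithelium, 0.74 (0.91) with neutrophils, 0.695 (0.56) with pancreatic acinar genes and 0.67 (0.795) with monocytes and macrophages. Il1r1 had 0.87 (0.71) with endothelium and 0.80 (0.68) with fibroblasts. The sums of different cell types vary with each other. The neutrophil sum is weighted to Ly6g. In TNBS and IBC the pancreatic acinar sum is weighted to Cela1, which averaged 145.8 and 125.4 CPM beside 0.496 and 0.475 for Cpb1. That sum was 16.3 to 26.9 CPM in the libraries low in Hoxb13 and at least 85.0 CPM in the others. The colon epithelium sum is weighted to Muc2 (980 to 18440 CPM) and Car1 (254 to 14830 CPM), while Epcam ran from 1021 to 2004 CPM. An r with such a sum is thus not an r with the amount of a cell type.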

How the data were processed

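The deposited table holds, per the file headers, a count and an FPKM value for each of 35405 genes in each of 18 libraries of polyadenylated colon RNA, made by the authors from reads trimmed with cutadapt 1.9, per the submitters' processing notes. Which aligner, counter, annotation and build were used is not given in the sources used here. A count of 4 was commoner than 3 or 5 among low values (19961 pairs of gene and library, against 9977 and 6358), so counts may not be single fragments, and no upper limit is given for a count of 0. The number of counts in a library sets the precision of its values. All 36 value columns were used.

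Genes were filtered with filterByExpr, totals were scaled by TMM, and groups were compared with edgeR 4.0.16 (quasi-likelihood test, 1 fit of 18 libraries, two-sided, Benjamini-Hochberg over 20855 genes, threshold 0.05). Alternatives used DESeq2 1.42.0 and limma 3.58.1 under R 4.3.3. Ratios (pseudocount 0.5) were compared by two-sided exact permutation tests. A library is low in Hoxb13 under 10 CPM. The scripts were tested on simulated data.

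The members and the 19 lists (178 genes, 174 matched by symbol) were chosen with earlier results of these data known. Named are all members, up to 4 genes of each pathway list with the smallest p in TNBS against vector, and for each member over 1 CPM the 3 genes with the highest r; Il1rl2, Casp1, Il5 and Il13 were named after their values were seen.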

Additional observations from a re-analysis of the deposited data

Results flagged for a closer look

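In 39 groups of 6 values (10 members and 3 ratios in 3 groups), a Dixon test at its 95% critical value of 0.625 picked out 4. Chance picks about 1 in 20 groups where values are normally distributed. The member values were CPM without logs, so their chance rate may be higher. Il18 in TNBS 5 was 230.3 CPM, far above the next TNBS library at 60.9 CPM. Il33 in vector 3 was 11.3 CPM beside 6.40 in the next vector library, and vector 3 is also the library with the highest mitochondrial share. Il18bp was 10.7 CPM in vector 4 beside 6.59 in the next, and 29.8 CPM in TNBS 3 beside 8.21 in the next. Vector 3, vector 4 and TNBS 3 belong to the libraries low in Hoxb13, and TNBS 5 does not. The part of the Hoxb13 set in these values was not tested.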

How the results depend on the processing

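By edgeR, TNBS against vector called 4 genes. The count was 0 with no low-count filter, with a minimum count of 50, and by limma with a pseudocount of 0.1 or 1. It was also 0 with counts divided by 4, with the compared groups alone, and within the high or the low Hoxb13 set alone. DESeq2 called 574 genes, and edgeR 142 with the Hoxb13 set as a term. With 1 library left out edgeR called 0 to 323 genes, and with that term as well 0 to 1215. IBC against TNBS called 0 genes, 2 by DESeq2 and 0 to 1 with 1 library left out. IBC against vector called 0 genes, 186 by DESeq2, 8 with the compared groups alone, 4 with the Hoxb13 term and 30 in the high set. With 1 library left out it called 0 to 5 genes, and with the Hoxb13 term as well 0 to 49. The fits with the Hoxb13 term and 1 library left out were added after seeing the data. The labels state no pairing by replicate number. Of 18 same-numbered pairs, 7 had a correlation of deviations from the group means over 0.1 (median -0.02). These deviations keep the Hoxb13 sets, so the correlations cannot decide whether the libraries are paired. TNBS 2 and IBC 2, both low in Hoxb13, had 0.494, and vector 3 (low) and IBC 3 (high) had -0.403. With the replicate number as a block, edgeR called 1 gene in TNBS against vector and 0 in the others, with 0 members, and the Il1b to Il1rn ratio gave an exact p of 0.0625 in both comparisons with vector. Signs of several log2 differences turned, none with a call on either side. Not all turned values were small. In the low set, Il1b had an unadjusted p = 0.0158 in IBC against TNBS (edgeR). Il1r1 had an unadjusted p = 0.0123 in IBC and 0.0408 in TNBS against vector there (edgeR). In IBC against TNBS, Il1rn and Il1rl1 were 0.0093 and 0.15 by limma at 0.1, and 0.0060 and 0.13 at 1; Il1rl1 was 0.28 with the replicate block; Il1b was -0.044 with the Hoxb13 term; in the high set Il1a was 0.35, Il18bp 0.0069 and Il1rl1 0.19; in the low set Il1b was -1.78, Il1r1 -0.22, Il1rap -0.10, the Il1b to Il1rn ratio -1.01 and the Il33 to Il1rl1 ratio 0.017. In IBC against vector, Il1rap was 0.057 in the high set, and Il1r1 and Il18r1 were -0.88 and 0.22 in the low set. In TNBS against vector, Il1r1 was -0.65 in the low set and the Il18 to Il18bp ratio 0.15 in the high set. With 1 library left out, with or without the Hoxb13 term, TNBS against vector ran from -0.090 to 0.88 for Il18, from -0.090 to 0.27 for Il1r1 and from -0.48 to 0.35 for the Il18 to Il18bp ratio. IBC against TNBS ran from -0.41 to 0.65 for Il1b, from -0.51 to 0.085 for Il1rn, from -0.47 to 0.29 for Il18bp, from -0.026 to 0.49 for Il18r1, from -0.52 to 0.50 for Il1rl1, from -0.081 to 0.49 for the Il1b to Il1rn ratio and from -0.68 to 0.028 for the Il33 to Il1rl1 ratio. IBC against vector ran from -0.47 to 0.020 for Il18. The causes were not tested. Beside the fits that left a library out, 369 member values kept direction and call, 16 turned sign and 5, all by DESeq2, gained a call. Il1a, under 1 CPM in all vector libraries, had the lowest counts of the members there.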
